A study of Mus musculus with 4 samples.

Results

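RBPJ regions in coding exons are stretches of the genome bound in both RBPJ libraries whose center falls within protein-coding sequence, away from any transcription start site (TSS). Overlapping peaks of the libraries were merged, and an interval was kept where both libraries contributed a peak, which gave 25454 consensus regions. Of these, 409 had their midpoint in coding sequence of the basic GENCODE transcripts (mm10), and 234 of the 409 lay within 1 kb of a TSS. A further 15 were wider than 3000 bp. The remaining 160 regions, in 151 host genes, are described here and made up 0.629% of the consensus (95% Wilson interval, 0.539 to 0.733). The comparison group was the 8691 regions of the same width limit and TSS distance whose midpoint lay in an intron of a protein-coding gene.

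RBPJ binding was profiled by HT-ChIPmentation, a chromatin immunoprecipitation in which the sequencing adapters are inserted by tagmentation on the beads. The cells were alveolar macrophages (AMs), sorted by flow cytometry from bronchoalveolar lavage, and the mice were WT C57BL/6J animals aged 9 wk, without any engineered allele or treatment. The series held 4 samples, 2 RBPJ libraries (replicates 1 and 2) and 2 inputs, and the inputs served as background when the authors called peaks. No label says whether the replicates came from separate animals, so the spread between the libraries may be technical.

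RBPJ is the DNA-binding protein through which activated Notch receptors switch on their target genes, and in the absence of Notch signaling it assembles with corepressors such as SPEN. Most of its known sites lie in promoters and in enhancers of introns and intergenic sequence. Coding exons can also hold sites of transcription factors, and their sequence then serves the protein code and the binding protein at once. In macrophages, many enhancers carry the recognition sequence of PU.1, an ETS family factor that defines the myeloid lineage.

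Motifs were searched on either strand, up to 100 bp from the summit, which is the point of highest enrichment, taken from whichever library had the higher fold. The sequences below, from the plus strand of GRCm38, show the most enriched region (Prdm2), the most enriched host among AM identity genes (Itgax), a metal transporter of the phagosome (Slc11a1) and the corepressor gene Spen. They also show Prune2, Piezo1 and Cited2, which were chosen after their values were seen because a motif lies in coding sequence close to the summit. Capitals mark the RBPJ core TGGGAA and the PU.1 and ETS motif AGGAAGT on either strand. The windows are chr4:143162065-143162265 for Prdm2, chr7:128133667-128133844 for Itgax, chr1:74381646-74381846 for Slc11a1, chr4:141477620-141477820 for Spen, chr19:17125498-17125698 for Prune2, chr8:122484918-122485118 for Piezo1 and chr10:17724529-17724729 for Cited2. Prdm2, Spen and Piezo1 are transcribed from the minus strand and the others from the plus strand.
Prdm2: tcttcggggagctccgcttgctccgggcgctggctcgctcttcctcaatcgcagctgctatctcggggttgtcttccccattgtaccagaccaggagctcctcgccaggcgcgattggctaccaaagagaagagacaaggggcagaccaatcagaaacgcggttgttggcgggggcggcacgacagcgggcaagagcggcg
Itgax: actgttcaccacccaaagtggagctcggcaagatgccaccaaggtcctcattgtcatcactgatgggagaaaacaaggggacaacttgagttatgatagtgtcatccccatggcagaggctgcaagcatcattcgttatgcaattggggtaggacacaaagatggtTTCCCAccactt
Slc11a1: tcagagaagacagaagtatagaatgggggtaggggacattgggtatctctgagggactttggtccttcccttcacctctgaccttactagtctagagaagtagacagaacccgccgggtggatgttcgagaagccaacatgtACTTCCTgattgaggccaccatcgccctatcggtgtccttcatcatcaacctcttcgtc
Spen: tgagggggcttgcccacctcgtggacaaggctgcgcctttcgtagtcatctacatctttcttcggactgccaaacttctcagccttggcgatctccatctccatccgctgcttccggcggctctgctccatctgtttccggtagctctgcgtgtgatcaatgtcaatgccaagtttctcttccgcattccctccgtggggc
Prune2: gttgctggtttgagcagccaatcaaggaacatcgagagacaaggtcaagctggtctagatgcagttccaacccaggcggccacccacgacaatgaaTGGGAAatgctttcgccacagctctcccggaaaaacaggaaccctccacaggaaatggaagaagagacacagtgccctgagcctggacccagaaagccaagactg
Piezo1: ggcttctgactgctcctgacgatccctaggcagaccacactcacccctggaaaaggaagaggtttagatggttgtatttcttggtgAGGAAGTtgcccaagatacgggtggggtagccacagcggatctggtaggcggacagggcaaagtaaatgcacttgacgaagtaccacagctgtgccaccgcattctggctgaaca
Cited2: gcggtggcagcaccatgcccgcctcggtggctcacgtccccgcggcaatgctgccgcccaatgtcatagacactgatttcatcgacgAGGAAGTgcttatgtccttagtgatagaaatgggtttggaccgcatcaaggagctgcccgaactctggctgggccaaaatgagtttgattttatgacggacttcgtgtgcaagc
The Prdm2 and Spen windows hold neither motif. Every base shown is coding in Spen, Prune2 and Cited2, and 118 bases are in Prdm2, 111 in Slc11a1 and 157 in Piezo1. In Cited2, which encodes a coregulator that binds CBP and p300, the capitals lie 10 bp upstream of the summit on the coding strand. In Prune2 the RBPJ core begins a codon and its center lies 1 bp from the replicate 1 summit, whereas the replicate 2 summit was 833 bp away in an intron. The RBPJ core match of Itgax lies beyond the coding segment, 69 bp from the replicate 1 summit. It spans the replicate 2 summit, which lay in an untranslated exon. The window is shown up to shortly after this match, so 2 AGGAAGT matches centered 77 and 90 bp from the replicate 1 summit are not shown in full.

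The lists held 106228 peaks in replicate 1 and 47224 in replicate 2. Fold denotes how far the summit rose above the local background according to the peak caller, and the depth behind these values was not examined. Of 12 AM markers, 10 had a consensus region within 1 kb of a TSS and 11 had one there or in the gene. Among all 21755 protein-coding genes, 33.7% had a region within 1 kb of a TSS. The share of all genes with a region there or in the gene was not computed. All intervals below cover counting error over regions, genes or windows within these libraries, since neighboring regions are not replicates.

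The coding-exon regions were moderately enriched, and few were among the strongest of the genome. Their fold ran from 2.28 over a median of 5.58 to 15.98 in replicate 1 and from 2.97 over a median of 4.69 to 13.4 in replicate 2. Intron regions had medians of 5.86 and 4.69, respectively. In replicate 1, 7 of the 160 regions (4.38%; 2.14 to 8.75) reached the top 10% of all consensus regions by fold, against 7.61% of intron regions (7.07 to 8.18), and in replicate 2, 8 did (5%; 2.56 to 9.56), against 6.501% (6.002 to 7.04). These intervals overlapped in both libraries. The fold was higher in replicate 1 in 110 of 160 regions (68.8%; 61.2 to 75.4), close to the 72.7% of intron regions (71.7 to 73.6). The median width was 555 bp against 587 bp in introns, and the summits of the libraries lay within 100 bp of each other in 85 of 160 regions (53.1%; 45.4 to 60.7) against 50.5% (49.5 to 51.6).

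**Figure D1:**
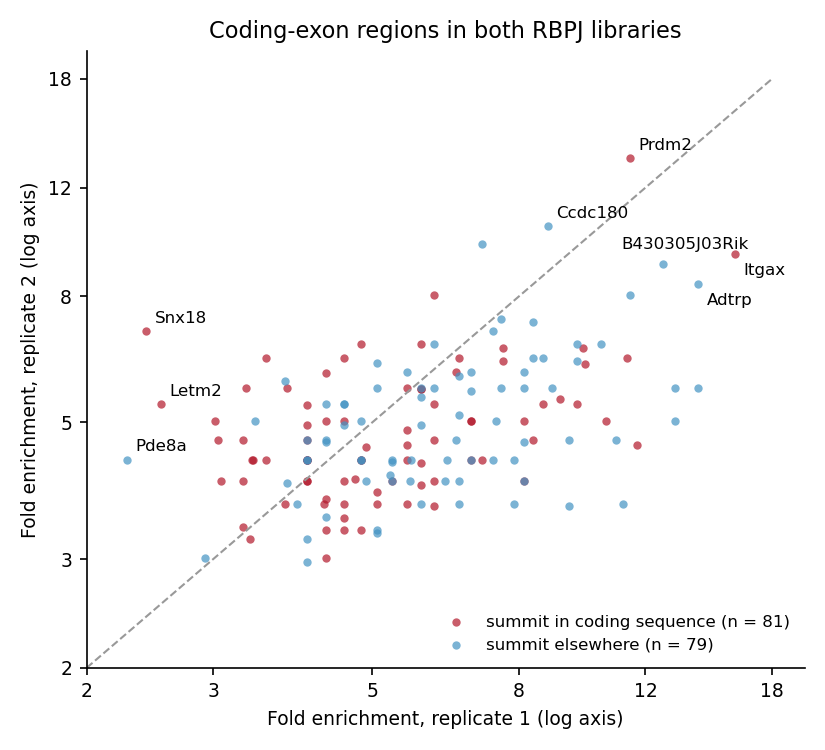
Fold enrichment of the 160 coding-exon regions in replicate 1 (x axis) and replicate 2 (y axis), both on log axes, with 1 point per region and a dashed line of equal fold. Red points have the summit of the higher fold in coding sequence and blue points have it elsewhere, and 110 points lie below the line.

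Prdm2 carried the strongest region. It encodes a PR domain zinc finger protein with histone methyltransferase activity. The fold was 11.4 in replicate 1 and 13.4 in replicate 2, with the summits 3 bp apart, both in coding exon 5 of 8 and 4433 bp from the nearest TSS. The region was narrow, at 245 bp, against a coding segment of 127 bp. Its window was GC rich, with 63.2% GC and 18 CpG dinucleotides, where the median region had 49.3% and 3.

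Itgax, the gene of the integrin CD11c that AMs express at high levels, followed with a fold of 15.98 and 9.37. Its region, chr7:128133246-128134354, was 1109 bp wide and touched 2 coding segments, so that 27.1% of its bases were coding. B430305J03Rik, an uncharacterized gene with a single coding exon, had 12.7 and 9.04, but both summits lay in its untranslated sequence. Replicate 1 gave the higher value in both of these genes and the lower one in Prdm2.

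The next regions belonged to genes of varied function and in most of them the summit lay in the adjacent intron. Ccdc180, which encodes a coiled-coil protein, had 8.78 and 10.4, and this was the only region in its gene body. Adtrp, a hydrolase of fatty acid esters, had 14.2 and 8.37. Cd101, an immunoglobulin superfamily receptor of myeloid and T cells, had 11.4 and 8.03, with the midpoint in its last coding exon. In these 3 genes both summits lay in intron sequence and AGGAAGT was present within 100 bp. Eif4g3, a translation initiation factor, had 7.55 and 7.36, with 3 matches to TGGGAA within 100 bp, none of them coding. Mvd, which acts in the mevalonate pathway of sterol synthesis, had 8.37 and 7.26. Anxa5, a phosphatidylserine-binding annexin, had 7.10 and 9.71. These last 3 genes all had a promoter region as well.

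Further down the ranking by the lower of both folds, Kdm4a, a histone lysine demethylase, had 7.36 and 7.03, Trps1, a GATA-type repressor, had 9.64 and 6.69, and Cdk19, a Mediator kinase, had 8.37 and 6.36. Lilrb4a, an inhibitory receptor of myeloid cells, had 10.4 and 6.69. Its window has a similar copy elsewhere in the genome, as do those of Actb and Msh6 among the 160 (at least 90% identity over at least 150 aligned bases was required), so reads may be shared between the copies. Slc11a1, the metal transporter NRAMP1 of the phagosome, had 9.81 and 6.60, with the midpoint in coding exon 9 of 15 and the replicate 2 summit in an intron. Alpk2, an alpha kinase, had 7.61 and 6.60 wholly within a coding segment of 3364 bp, with GTGGGAA, the longer RBPJ form, on the sense strand 19 bp from the summit. Spen, the corepressor that RBPJ recruits, had 6.60 and 6.36 inside the longest coding segment that held a region, 8020 bp. At the other end, Pde8a had 2.28 and 4.35, Snx18 2.42 and 7.03, and Letm2 2.54 and 5.36, so all 3 were weak in replicate 1, and in replicate 2 Snx18 and Letm2 were above the median of the regions and Pde8a was below it.

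At each limit of the selection the 2 regions just outside had the higher lower fold of the libraries. The widest regions inside were those of Zfp622, 2732 bp wide with folds of 8.12 and 6.02, and Evi2a, 2497 bp with 13.2 and 5.69. The narrowest left out were those of Heatr1, 3291 bp with 13.2 and 7.03, and Creb5, 4082 bp with 18.01 and 8.70. The regions nearest to a TSS were at 1010 bp in Flvcr2 (3.43 and 5.02) and 1058 bp in Pcyox1 (6.60 and 3.68), and those just too close were at 991 bp in Rwdd2a (5.58 and 5.69) and 979 bp in Togaram1 (4.57 and 5.36).

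Coding sequence held fewer RBPJ regions per base than introns. At more than 1 kb from a TSS, the 160 regions fell in 29.7 Mb of coding sequence, a density of 5.38 per Mb (exact Poisson interval, 4.58 to 6.28), and the 8691 intron regions in 882 Mb, a density of 9.85 per Mb (9.64 to 10.1). The ratio was 0.546 (exact conditional interval, 0.464 to 0.639). It held in each library taken alone, at 0.528 (0.492 to 0.566) for all peaks of replicate 1 and 0.663 (0.597 to 0.734) for those of replicate 2. Since coding sequence lies closer to TSSs, where regions were dense, the ratio was also taken within classes of distance. It was 0.497 (0.383 to 0.635) at 1 to 3 kb, 0.369 (0.269 to 0.494) at 3 to 10 kb and 0.303 (0.203 to 0.437) at 10 to 30 kb. Beyond 30 kb, where 19 coding regions remained, it was 0.829 (0.498 to 1.30) and no difference was detectable. In genes with a region within 1 kb of a TSS (a promoter region) the densities were 10.6 and 24.4 per Mb (ratio 0.433; 0.359 to 0.517), and in genes without one they were 2.04 and 3.26 per Mb (0.626; 0.440 to 0.866). Mappability and the input coverage of coding and intron sequence were not analysed here, and their part in the ratio was not tested.

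**Figure D2:**
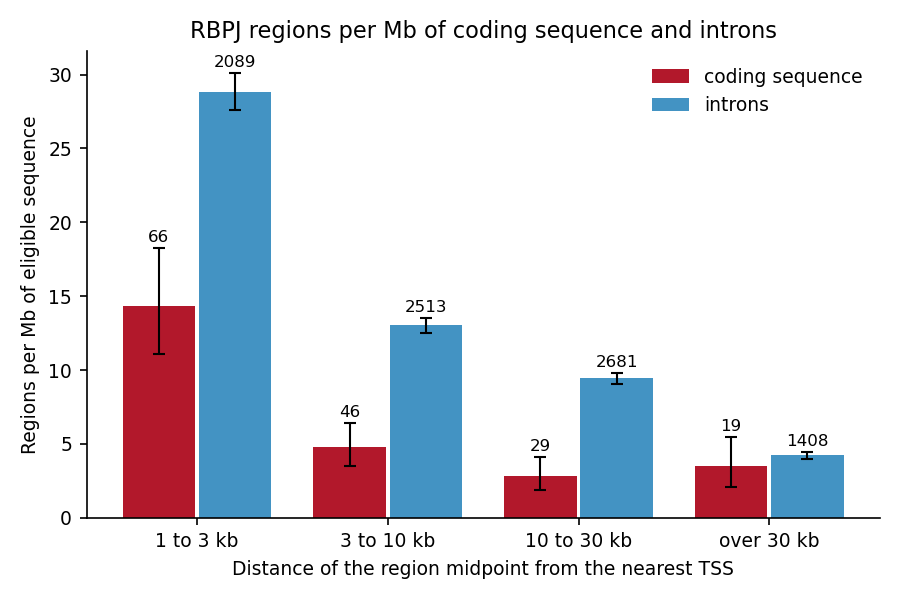
RBPJ regions per Mb of coding sequence (red) and introns (blue) in 4 classes of distance from the nearest TSS. Bars give the density with its exact Poisson 95% interval and the number above each bar is the count of regions, and coding sequence is lower in the 3 classes up to 30 kb while the intervals overlap beyond 30 kb.

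The regions were mostly wider than the exon that gave them their name. In 120 of 160 (75%; 67.8 to 81.1) the region was wider than its coding segment, and the median region had 37.9% coding bases. Only 26 regions (16.3%; 11.3 to 22.7) were wholly coding, among them those of Spen, Alpk2, Klf4, Bhlhe40 and Tlr2, and 31 (19.4%; 14 to 26.2) touched at least 2 coding segments. The summit with the higher fold lay in coding sequence in 81 regions (50.6%; 43.0 to 58.3), in an intron in 65 (40.6%; 33.3 to 48.4), in an untranslated exon in 9 and within 1 kb of a TSS in 5. Both summits were coding in 49 regions (30.6%; 24.0 to 38.2) and neither was in 59 (36.9%; 29.8 to 44.6). Regions with a coding summit had median folds of 4.82 and 4.69 in replicates 1 and 2, below the 6.31 and 4.95 of the 79 with the summit elsewhere. The highest values among regions with a coding summit were Itgax in replicate 1 and Prdm2 in replicate 2.

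Internal coding exons held fewer of the regions than their share of coding bases, and the other places did not differ detectably from theirs. By the longest coding transcript, which held 159 of the 160 midpoints, 107 (67.3%; 59.7 to 74.1) fell in internal coding exons, which hold 75.1% of the eligible coding bases. The first coding exon had 11 (6.92%; 3.91 to 11.96) against 4.13% of bases, the last had 29 (18.2%; 13.01 to 24.97) against 16.3%, and genes with a single coding exon, such as Tlr2 and Cited2, had 12 (7.55%; 4.37 to 12.7) against 4.47%. The share of bases was above the interval of the regions for internal exons and inside it for the others. Coding segments over 1000 bp held 25 regions (15.7%; 10.9 to 22.2), the same share as of bases, 15.7%. They included Spen, Map1b (6490 bp, folds of 5.58 and 3.68), Alpk2 and Akap13, an A-kinase anchoring protein gene with 2 regions in 1 segment of 3076 bp (8.63 and 5.36, and 3.30 and 4.02). Among the 80 regions that also had a coding summit the share in long segments was 30% (21.1 to 40.8), but assigning regions by the summit in place of the midpoint gave 15.2% (10.4 to 21.6) of 158.

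**Figure D3:**
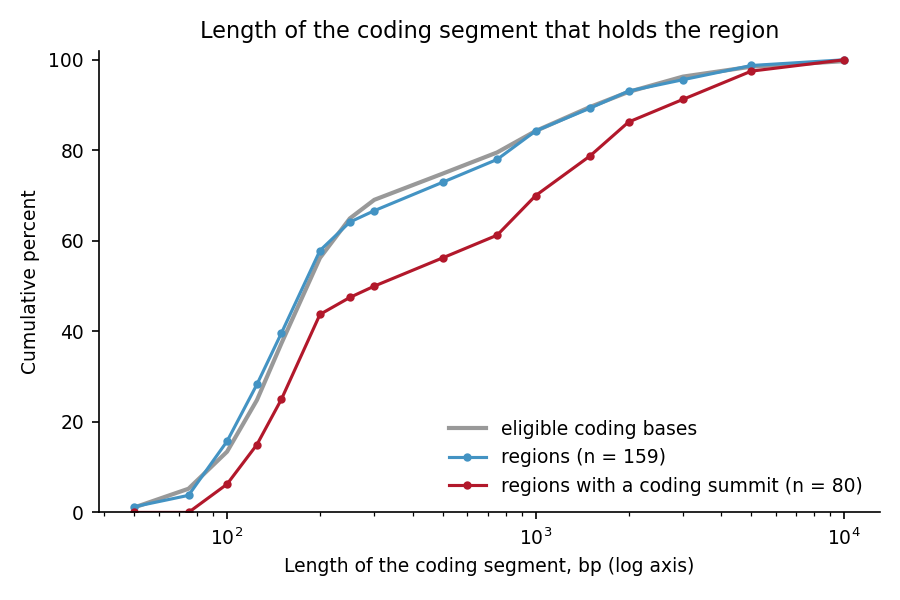
Cumulative percent of eligible coding bases (gray), of regions (blue, n = 159) and of regions that also have a coding summit (red, n = 80) by length of the coding segment on a log axis. The blue line follows the gray one, with 84.3% of each at 1000 bp, and the red line is at 70.0% there.

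Annotated starts outside the basic transcript set lay near many of the regions. A TSS of the comprehensive GENCODE set was within 1 kb of 47 of 160 midpoints (29.4%; 22.9 to 36.8), and 16.6% of the eligible coding bases lay that close. Intron regions showed the same order at lower levels, 8.66% (8.09 to 9.27) against 3.96% of bases. The distance to such a start was 1 bp in Adtrp, 5 bp in Pde8a, 19 bp in Piezo1, 44 bp in Coro1a and 69 bp in Lck. Counting these starts left 116 regions with a density ratio of 0.503 (0.415 to 0.604).

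The PU.1 and ETS motif was frequent at the summits. AGGAAGT occurred within 100 bp of the summit in 37 of 160 regions (23.1%; 17.3 to 30.2), against 5.06% (4.96 to 5.17) of 174288 windows of the same length centered on eligible coding segments without a region. The difference was 18.1 points (Newcombe interval, 12.2 to 25.2). Its reversed letters, TGAAGGA, a control for base composition, were found in 2.50% of the regions and 6.58% of the windows. Intron regions had AGGAAGT in 18.2% (17.4 to 19.1), and the difference of 4.90 points (-1.02 to 12.1) from the coding-exon regions was within counting error. The motif was as frequent in the regions with a coding summit, 18 of 81 (22.2%; 14.5 to 32.4), and differed little by strength, with 11 of the 53 strongest, 13 of the next 53 and 13 of the 54 weakest by lower fold. In single-library peaks with a coding midpoint the excess over coding windows was smaller, 8.34 points (6.17 to 10.8) for replicate 1 alone and 6.31 points (3.49 to 9.91) for replicate 2 alone.

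The sites gathered at the summit. There were 1.5 AGGAAGT sites per kb within 25 bp (exact Poisson interval, 0.775 to 2.62) and 1.5 between 25 and 50 bp, 1.13 between 50 and 100 bp and 0.50 between 100 and 200 bp. Beyond, the rate was 0.271 (0.144 to 0.463) at 200 to 350 bp and 0.354 (0.206 to 0.567) at 350 to 500 bp. Intron regions fell from 1.15 to 0.340 over the same distances. Hosts with a coding site included Cited2 and Slc11a1, whose windows are shown above, and the mechanosensitive channel gene Piezo1, with folds of 9.89 and 6.21.

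The RBPJ core was not more frequent than in the other sequence sets. TGGGAA occurred in 24 of 160 regions (15%; 10.3 to 21.3), against 17.0% of coding windows without a region (difference, -2.01 points; -6.72 to 4.34) and 19.1% of intron regions (-4.08 points; -8.86 to 2.32). Both differences were within counting error, which at this number of regions leaves room for an excess of up to 4.34 points over the coding windows. The difference from introns turned to 2.63 points (-1.68 to 8.68) within 50 bp of the summit. Of its 26 sites, 20 lay within 50 bp of the summit and 8 lay in coding sequence, 6 of them on the sense strand. The rate was 1.13 per kb within 25 bp (0.514 to 2.14), 1.38 at 25 to 50 bp (0.686 to 2.46) and 0.375 at 50 to 100 bp (0.138 to 0.816), and 1.08 at 350 to 500 bp (0.809 to 1.42). Intron regions stayed between 1.02 and 1.15 per kb throughout. GTGGGAA was present in 6 regions (3.75%; 1.73 to 7.94), those of Itgax, Eif4g3, Alpk2, Gnb3, Lck and Cfb, against 4.27% of coding windows. Both TGGGAA and AGGAAGT were present in 5 regions.

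**Figure D4:**
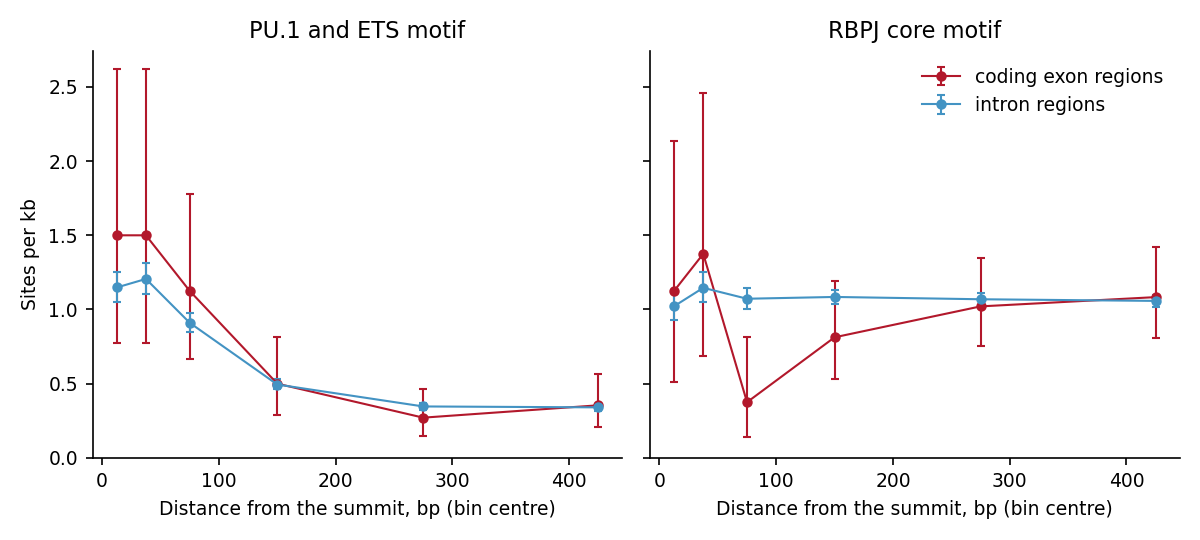
Sites per kb of the PU.1 and ETS motif (left) and the RBPJ core (right) by distance from the summit, in 160 coding-exon regions (red) and 8691 intron regions (blue), with exact Poisson 95% intervals. The PU.1 and ETS motif falls from 1.5 to 0.354 sites per kb in coding-exon regions, and the RBPJ core shows no such fall over the whole range.

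Among the other 12 motifs, CEBP and AP-1 stood above coding windows and KLF and CTCF above both sets when all 160 regions were counted, wherever the summit lay. The CEBP form TTNCNNAA was in 72 regions (45.0%; 37.5 to 52.7) against 33.5% of coding windows, while its reversed form was in 29.4% against 30.6%, and intron regions had more, 54.0% (difference, -9.02 points; -16.6 to -1.21). The AP-1 form TGANTCA was in 13 regions (8.13%) against 4.72% (3.40 points; 0.0831 to 8.68). The KLF and SP form CCGCCC was also in 13, against 4.75% (3.37 points; 0.0544 to 8.65), but so was its reversed form, against 5.16%. The CTCF form AGGGGGC was in 9 regions (5.63%) against 2.85% (2.78 points; 0.141 to 7.50) and 2.0% of intron regions (3.62 points; 0.966 to 8.35), with Spen among them. In the 81 regions with a coding summit, CEBP (39.5%; difference from coding windows, 5.97 points; -3.97 to 16.9), AP-1 (4.94%; 0.213 points; -2.79 to 7.30) and CTCF (6.17%; 3.33 points; -0.181 to 10.8) differed from coding windows by less than counting error, and KLF and SP (11.1%; 6.36 points; 1.20 to 15.03) was above them, as was its reversed form (5.96 points; 0.80 to 14.6). AGGTCA, the core site of nuclear receptors, was in 29 (18.1%) against 13.99% (4.14 points; -1.06 to 10.8), and TTCNNNGAA of STAT factors in 6 (3.75%) against 6.42% (-2.67 points; -4.69 to 1.52). The forms CACGTG of BHLHE40 and BHLHE41, GTCTAGA of SMADs, TGTGGTT of RUNX, ACTACAA of ZFP143 and AAGATGG of YY1 differed from coding windows by less than counting error. TGGGAA is contained in GTGGGAA, and no other pair of these forms contains the other. In all, 31 regions held none of the 14 motifs. The intervals were not adjusted for the number of motifs.

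**Figure D5:**
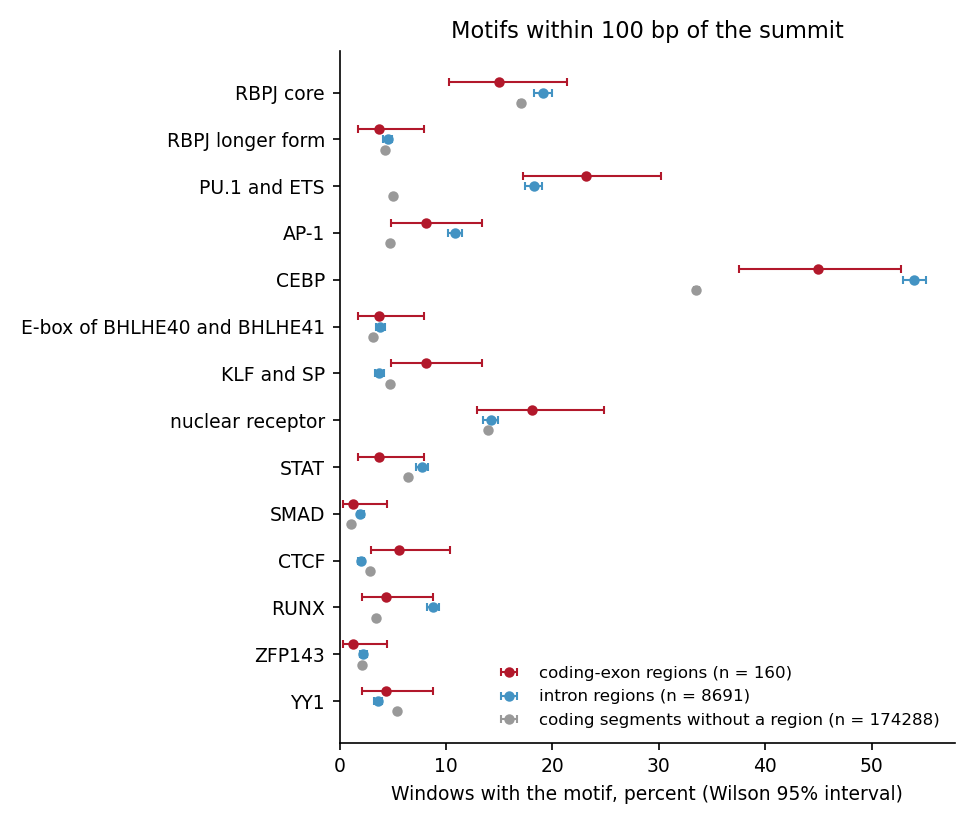
Percent of windows with each of 14 motifs within 100 bp of the summit in coding-exon regions (red) and intron regions (blue), and within 100 bp of the center of coding segments without a region (gray), with Wilson 95% intervals. The PU.1 and ETS motif is at 23.1% in coding-exon regions, 18.2% in intron regions and 5.06% in coding segments without a region.

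GC content followed the place of the summit. The median window had 49.3% GC, close to the 49.8% of coding windows without a region and above the 44.3% of intron regions. It was 53.7% in the 81 regions with a coding summit and 46.8% in the other 79.

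Recurrence of a peak in the other library was lower in coding sequence than in introns for replicate 2 but not for replicate 1. Of the 821 replicate 1 peaks with a coding midpoint, 187 overlapped a replicate 2 peak (22.8%; 20.04 to 25.8), against 20.4% of intron peaks (difference, 2.37 points; -0.389 to 5.39). Of the 378 such peaks of replicate 2, 223 overlapped a replicate 1 peak (59.0%; 54.0 to 63.8), against 65.3% (-6.32 points; -11.4 to -1.43). Within 10 classes of equal significance the differences were 3.29 points (0.842 to 5.74) and -7.28 points (-11.9 to -2.70). For replicate 1 the interval lay above 0 in 2 of the 10 classes, and for replicate 2 it lay below 0 in 3. Replicate 2 peaks in coding sequence thus recurred less often than intron peaks, and replicate 1 peaks did not.

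The host genes were mostly genes with a promoter region. Of 19509 protein-coding genes with eligible coding sequence, 150 hosted a region, or 0.769%, and 1 further host, Clec7a, is not annotated as protein coding. A promoter region was present in 112 of the 150 (74.7%; 67.2 to 81.0), against 33.7% of all 21755 protein-coding genes and 68.8% (67.2 to 70.4) of the 3200 genes that hosted an intron region. The difference from the latter was 5.85 points (-1.83 to 12.3) and within counting error, and it turned to -4.82 points (-12.9 to 2.57) when regions were assigned by summit. A region that reached within 1 kb of a TSS counted here even where its midpoint lay farther away. Coding-exon and intron regions could therefore count for their own hosts. That of Pcyox1, the only region in its gene body, had both summits within 1 kb of a TSS. How many hosts this concerns was not counted, so these shares are not independent of the regions. The host bodies held a median of 3 consensus regions, up to 35 in Akap13, 29 in Trps1 and 24 in Ankrd11, whereas in 23 genes the coding-exon region was the only one. Of all hosts, 142 had 1 such region and 9 had 2. The latter were Akap13, Best1, Cd9, Elmo1, Flvcr2, Lrp1, Mki67, Mvd and Plk3, and no gene had more.

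A few genes of AM identity and of macrophage transcription factors were among the hosts, to be read against the 0.769% of all genes that hosted a region. Of 23 listed AM identity genes with eligible coding sequence, 2 hosted a region (8.70%), Itgax and Tlr2, although 23 of the 25 genes listed had a promoter region. Tlr2, the receptor for bacterial lipoproteins, had folds of 3.40 and 4.35 within its single coding exon. Of 27 macrophage transcription factors, 2 were hosts (7.41%), with promoter regions at 28 of the 30 listed. Klf4, a zinc finger factor of macrophages, had 4.06 and 4.69, and Bhlhe40, a basic helix-loop-helix repressor, had 4.57 and 3.68, both wholly in coding sequence. With 2 hosts a list, these shares rest on few genes. The study also counts Ucp3 and Mmp8 among its AM genes, and both were hosts but were not on the AM list used here. The folds of Tlr2 and Bhlhe40 were below the median of the 160 regions in both libraries. That of Klf4 was below it in replicate 1 and equal to it in replicate 2.

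The remaining lists had at most 2 hosts each. Promoter regions were present at 72.5% of the listed Notch pathway genes and RBPJ cofactors and at 80% of the chromatin regulators. They were present at 83.3% of lipid and lysosome genes and 74.2% of actin and myosin genes, against 33.7% of all protein-coding genes. Among 39 Notch pathway genes and RBPJ cofactors the host was Spen (2.56%), and among 40 chromatin regulators it was Prdm2 (2.50%). The 30 actin and myosin genes had 2, Actb (5.58 and 4.86) and Coro1a, a leukocyte actin-binding protein (5.84 and 6.69). None of 30 lipid and lysosome genes was a host, which allows a share of up to 10% when a count of 0 is taken to allow 3 genes. Of the lists of other cell types, the 14 lymphocyte genes had Lck, the T cell kinase (4.31 and 4.65), with no promoter region at any of the 14. The 10 neutrophil genes with eligible sequence had Mmp8, a collagenase of granulocytes (9.64 and 5.36), and 2 of the 11 listed had a promoter region. Mmp8 is one of the AM-core genes of the study, so it does not mark neutrophils alone. Neuronal (14 genes), alveolar type II (12), endothelial (12) and monocyte (13) genes had no host, which at these list sizes allows shares of up to 21.4%, 25%, 25% and 23.1%, respectively. A promoter region was present at 0%, 25%, 8.33% and 15.4% of the genes in these lists, in the same order. Of the 13 loci that the study displayed or named for RBPJ, Itgax and Mmp8 were hosts, where 0.769% of all genes with eligible coding sequence were. The study showed these loci for their RBPJ peaks, so this count is a description and no independent check.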

How the data were processed

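RBPJ HT-ChIPmentation libraries (2) and inputs (2) came from AMs of WT mice, grouped by the labels. Per the submitters' processing notes and the study's methods, demultiplexing used CASAVA and bcl2fastq 2.20.0.422, trimming Cutadapt, alignment to mm10 Bowtie2 and read filtering SAMtools, and the authors called peaks per library with MACS3 against input at a q of 0.05. The deposited lists give start, end and summit offset, the fold enrichment of the summit (a ratio to local background), and the −log10 p and −log10 q. The deposited display score and the −log10 p were not used. The lists carry no read counts, so the depth behind each peak cannot be read from them, and precision rests on 2 libraries. The study provides sequencing quality data separately, which were not used here.

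Peaks overlapping by at least 1 bp were merged, and regions up to 3000 bp wide were assigned by midpoint with the basic GENCODE transcripts of release M21 on GRCm38, the assembly that mm10 names. No peak lay beyond a chromosome end (0 peaks). Eligible sequence lay more than 1 kb from any TSS. Windows reaching 100 bp either side of the higher-fold summit were scanned for 14 motifs on both strands and as reversed letters. Copies of the windows were sought with minimap2 2.31. Shares carry Wilson intervals, differences of shares Newcombe intervals, densities exact Poisson intervals and density ratios exact conditional intervals, all at 95%. For gene lists without a host, the upper limit is instead 3 genes divided by the number of genes with eligible coding sequence. Fold ranks used the lower value of both libraries. Scripts used pandas 2.3.3, numpy 2.4.6, matplotlib 3.10.9 and SciPy 1.17.1 under Python 3.11.15. Assignment and motif search were tested on simulated peaks and windows.

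Named genes followed a rule: the 15 regions highest in lower fold and the 10 highest in lower −log10 q, hosts with 3 or more regions, GTGGGAA regions in the upper 25% by fold, list genes that host a region (up to 4 a list), the regions just inside and outside each limit, the 3 weakest, and loci that the study displayed or named. Other genes named were chosen after their values were seen. The members and the 12 gene lists were chosen with earlier results of these data known. Alternatives covered the significance, overlap, summit, annotation, distance, width and window choices, each library alone, and replicate 1 shortened to the length of replicate 2. Those for AGGAAGT, for classes of distance and for genes with or without a promoter region were chosen after the data had been seen.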

Additional observations from a re-analysis of the deposited data

How the results depend on the processing

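The density ratio stayed below 1 with its interval in 17 of 18 alternatives, the exception being sequence over 30 kb from a TSS (0.829). AGGAAGT stayed in excess over coding windows in all 17, from 6.31 points without replicate 1 and 8.34 without replicate 2 to 23.4 points with comprehensive transcripts. The number of regions was 70 at a −log10 q of at least 5 in both lists (67 of the 160 overlapped), 85 with summits within 100 bp, 94 at more than 3 kb from a TSS, and 378 to 821 in single lists. The share of regions in coding segments over 1 kb, 15.6%, was 10.6% at more than 3 kb from a TSS. The TGGGAA difference from introns was -8.77 points when at least 50% of the shorter peak had to overlap and -13.5 points in windows wholly in coding sequence (2 of 36), with intervals below 0, but it turned to 2.63 points within 50 bp of the summit and to 0.305 points without replicate 1 (-0.162 without replicate 2). Its direction therefore depends on the window and on the libraries. The difference in host promoters turned to -4.82 points when regions were assigned by summit. It rose to 7.52 points with protein-coding genes only and ran from 4.88 to 9.23 points in single lists, with intervals above 0. Median GC was 52.2% by summit, 48.0% with replicate 1 shortened and 45.8% to 49.8% in single lists. The recurrence difference of replicate 1 was positive in both settings. Its interval included 0 in the main setting (2.37 points; -0.389 to 5.39) and lay above 0 within classes of significance (3.29 points; 0.842 to 5.74). The causes of these changes were not tested. No paired analysis was possible because the inputs that share numbers with the RBPJ libraries have no peak list of their own and no result comes from a test between sample groups. With 2 libraries, whose depth was not examined here, values between libraries carry no error of their own.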

Other observations

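Several further hosts are known from macrophages and were picked after their values were seen. Csf2ra, the alpha chain of the GM-CSF receptor, had folds of 4.82 and 4.35 in replicates 1 and 2 in a window of 70.6% GC, the highest of the 160 regions. Clec7a, the beta-glucan receptor dectin-1, had 6.85 and 4.35, with TGGGAA in coding sequence 5 bp from the replicate 1 summit. Its replicate 2 summit lay 312 bp away from the first. Promoter regions were sought only for genes annotated as protein coding, so none was looked for at Clec7a. Adam8, a metalloprotease of leukocytes, had 11.7 and 4.60 with summits 24 bp apart, both coding, and no promoter region. Havcr2, the inhibitory receptor TIM-3, had 4.82 and 4.35, and Irak2, a kinase of Toll-like receptor signaling, had 4.82 and 5.02 among 15 regions in its gene body. Both held AGGAAGT.

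The lipoprotein receptor gene Lrp1 had 13 regions in its body, of which 2 were coding-exon regions. The first had its midpoint in coding exon 8 of 89 (9.64 and 6.27) and both summits in an intron. The second had its midpoint in coding exon 22 (6.53 and 6.02) and its replicate 2 summit in an intron. The tetraspanin gene Cd9 had 2 with midpoints in neighboring coding exons, 6 and 7 of 8 (3.55 and 6.36, and 3.38 and 3.24), and 19 in its body. The replicate 1 summit of the first and the replicate 2 summit of the second lay in an intron. Ucp3, a mitochondrial carrier, had 8.88 and 5.68, with the midpoint in its last coding exon but both summits in an intron. Atf4, a transcription factor of the integrated stress response, had 5.84 and 5.69.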
